A study of Mus musculus with 16 samples.

Results

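Long non-coding RNA (lncRNA) genes were examined in Upf3b-null adult mice (Upf3b-KO) and littermate controls (Ctrl), in frontal cortex and cerebellum. Members were the rows of both count matrices whose gene type is lncRNA in the annotation used here, summed per gene, less a set of named genes. The well-studied small nucleolar RNA host genes Gas5 and those starting with Snhg, the imprinted genes Meg3, Rian and Mirg, and 2610507I01Rik, 9330160F10Rik and Gm29676 were left out by rule. This removed 24 of 10170 lncRNA genes and kept 10146, from a total of 55266 genes. The 4 groups were frontal cortex Ctrl, frontal cortex Upf3b-KO, cerebellum Ctrl and cerebellum Upf3b-KO, each with 4 libraries. By the study's account the mice were 4 adult animals with a null mutation of Upf3b and 4 littermate controls, so both tissues came from the same mice, but the labels do not tie library numbers to animals. Sex, strain and exact age are not given in the sources used here. Bulk tissue was sequenced, and in such samples fewer cells of a type and less RNA per cell cannot be told apart.

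An lncRNA is a transcript without an evident protein-coding frame, usually spliced and capped like a messenger RNA, and often present in few copies and in few cell types. Many arise beside or across protein-coding genes, and some carry microRNAs or small nucleolar RNAs in their introns. Upf3b is one of the proteins of nonsense-mediated RNA decay (NMD), a pathway that acts when a translating ribosome stops upstream of an exon junction. Spliced lncRNAs hold short reading frames far from their end, and some spliced small nucleolar RNA hosts are textbook substrates of this pathway. In brain, individual lncRNAs mark single neuron classes, among them Dlx6os1 in inhibitory neurons and Miat in forebrain neurons.

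A few sequences carry the findings described further on. Ubb-ps, which was higher in Upf3b-KO in both tissues, lies on chromosome 14 (GRCm39, chr14:46321483-46322457, plus strand) and resembles the polyubiquitin gene Ubb on chromosome 11. Its main transcript aligned to that of Ubb over 617 bases with 14 differences (97.7% identity). The 60-base window of this alignment with the most differences is shown, with the differing bases in capitals. It was not compared with other stretches of Ubb.
Ubb-ps: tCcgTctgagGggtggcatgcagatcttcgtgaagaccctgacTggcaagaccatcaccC
Ubb: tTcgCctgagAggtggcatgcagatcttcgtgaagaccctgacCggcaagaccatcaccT
C130021I20Rik and Lmx1b start back to back on chromosome 2, with 111 bases between their starts (GRCm39, chr2:33531094-33531204, plus strand), and both rose in Upf3b-KO cerebellum. The interval is shown as the only sequence both starts share, with its 9 CpG dinucleotides in capitals, and 64% of its bases are G or C.
C130021I20Rik to Lmx1b: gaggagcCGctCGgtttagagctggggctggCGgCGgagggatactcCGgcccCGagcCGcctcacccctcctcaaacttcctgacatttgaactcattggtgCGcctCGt
Of the 8 microRNA genes inside the lncRNA genes named for their changes or levels, 6 matched RefSeq (GRCm38.p6). Of the mature microRNAs held by Rmst and Dleu2, only those with names ending in 5p are shown, together with miR-6390 of Gm6145. The seed, bases 2 to 8, is in capitals. Only the host RNA was measured here, not the microRNAs.
miR-135a-5p (Rmst): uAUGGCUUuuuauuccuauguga
miR-1251-5p (Rmst): aCUCUAGCugccaaaggcgcu
miR-6390 (Gm6145): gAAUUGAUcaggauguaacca
miR-15a-5p (Dleu2): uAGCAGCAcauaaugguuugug
miR-16-5p (Dleu2): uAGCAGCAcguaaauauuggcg
Of the sequences shown, the last pair share the seed AGCAGCA, and no other seed is shared among them.

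The libraries held 27660078 to 35238677 counts, except cerebellum Upf3b-KO library 1 with 64981, in which 3 counts already make a counts-per-million (CPM) value of 46.2. That library was left out, which leaves 15 libraries and 3 in its group. Upf3b itself stood at 14.2 to 15.7 CPM in frontal cortex Ctrl and 0.229 to 0.857 CPM in Upf3b-KO, and at 20.9 to 23.6 CPM against 0.617 to 0.965 CPM in cerebellum (log2 fold changes −4.79 and −4.97). The libraries of a group were close, with a median coefficient of variation of 4.14% to 4.77% over all genes with enough counts and 11.3% to 12.9% over the lncRNA genes among them. The p-values measure only this spread between libraries, which may be largely technical. Markers of other tissue moved with the genotype. In frontal cortex the summed level of 9 choroid plexus markers was 24.7 to 25.6 CPM in Ctrl and 2249 to 2303 CPM in Upf3b-KO (9 of 9 higher), and that of 8 striatal neuron markers was 162 to 174 against 782 to 795 CPM (8 of 8 higher). In cerebellum the choroid plexus sum was 31.9 to 36.3 against 1439 to 1458 CPM (8 of 9 higher), the Purkinje cell sum 10514 to 10655 against 4176 to 4191 CPM (5 of 5 lower), the granule cell sum 3974 to 4009 against 2175 to 2182 CPM (4 of 7 lower) and the oligodendrocyte sum 6208 to 6328 against 14390 to 14493 CPM (5 of 6 higher). No marker of these 5 lists was at 0 in a group. As a check of the tissue labels in Ctrl, 7 of 7 granule and 5 of 5 Purkinje cell markers were higher in cerebellum, and 5 of 7 markers of cortical excitatory neurons were higher in frontal cortex. The part of these markers in the lncRNA results was not tested.

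lncRNA genes made up a small share of the counts, from 0.896% to 0.985% of a Ctrl library. Of the 10146 genes, 7766 had a count in at least 1 of the 15 libraries and 2380 were at 0 in every library, and 1082 had a mean of at least 1 CPM in a group. Between 3759 and 3872 were detected in a frontal cortex Ctrl library and 4475 to 4540 in an Upf3b-KO library. In cerebellum these numbers were 3445 to 3588 and 3948 to 4133. Thus every Upf3b-KO library held more detected lncRNA genes than any Ctrl library of its tissue. Detected genes were not counted over all genes, so a gain particular to lncRNA genes is not shown. The lncRNA share of counts was also slightly larger in Upf3b-KO (1.06% against 0.977% to 0.985% in frontal cortex, 0.929% to 0.932% against 0.896% to 0.903% in cerebellum). Allowing for transcript length, the share was also larger in frontal cortex Upf3b-KO (1.17% to 1.18% against 1.03% to 1.04%) but not in cerebellum Upf3b-KO (1.01% to 1.02% against 1.02%).

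On the transcripts-per-million (TPM) scale, which allows for transcript length, a few lncRNAs stood far above the rest. Norad, a cytoplasmic RNA that binds Pumilio proteins, had the highest level in frontal cortex Ctrl at 1513 TPM, and Malat1, which stays in nuclear speckles, had 1162 TPM. In cerebellum Ctrl the order was turned, with Malat1 at 1599 TPM and Norad at 851 TPM. The next in frontal cortex were Chn1os1 (220 TPM), an RNA across the gene of the neuronal signalling protein chimerin, Gm65989 (203 TPM), Oip5os1 or Cyrano (195 TPM), which binds miR-7, and Pantr1 (191 TPM), beside the cortical transcription factor gene Pou3f3. In cerebellum they were Cdr1os (419 TPM), from the locus of the Cdr1 transcript, Oip5os1 (335 TPM), the imprinted Peg13 (223 TPM), Gm65989 (204 TPM), Gm19872 (187 TPM) and Lhx1os (161 TPM). Levels of Gm65989, Gm63662, Gm70833 and Gm70834 are uncertain, since each is a near copy of a transcribed gene elsewhere.

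The first comparison asked which lncRNA genes distinguish cerebellum from frontal cortex in Ctrl mice. Of 1505 lncRNA genes past the filter on low counts, 217 were higher in cerebellum (14.4%) and 352 higher in frontal cortex (23.4%) where a call needed more than a 2-fold difference and an adjusted p below 0.01 (edgeR quasi-likelihood test). Over all genes tested the shares were 9.18% and 15.9%. Of the 217, 130 passed the filter only through cerebellum, and of the 352, 244 only through frontal cortex, so these had to differ. The median log2 difference, cerebellum over frontal cortex, was −0.09 over the lncRNA genes.

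Of the 10 lncRNAs higher in cerebellum with the smallest adjusted p, Lhx1os, across Aatf, stood at 62.5, 60.6, 59.5 and 59.2 CPM in cerebellum Ctrl and at 0.15, 0.212, 0.029 and 0.124 CPM in frontal cortex Ctrl. The libraries of the tissues lay far apart, and the log2 difference was 8.79 ± 0.11 (SE, adjusted p = 1.19e-23, edgeR). Gm19872, across the granule cell synapse organizer gene Cbln1, had 61.1 ± 2.8 against 3.2 ± 0.43 CPM (SD, n = 4 each), and 9330118I20Rik had 18.2 ± 1.3 against 1.37 ± 0.32 CPM. Cbln1 was also higher in cerebellum, at 385 against 8.49 CPM. Gm13944, across Zfp385b, stood at 8.65, 8.2, 9.81 and 9.33 CPM in cerebellum Ctrl and at 0 in all 8 frontal cortex libraries. Against 3 counts over the 4 Ctrl libraries it was at least 399-fold higher. Gm5083 (33.9 against 0.904 CPM), Gm14033 (13.5 against 0.106 CPM) and Gm15577, across the adhesion molecule gene Negr1 (7.64 against 0.0453 CPM), were 36-fold to 150-fold higher. Cdr1os (520 ± 8.3 against 185 ± 3.5 CPM), Gm43305 and Gm33989 differed only 2.29-fold to 2.7-fold, with spreads small enough for adjusted p values of 4.43e-16 or less (edgeR).

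Of the lncRNAs higher in frontal cortex, 2900052N01Rik, an intergenic gene (chr9:46823892-46838665), had the smallest adjusted p. It stood at 121, 120, 122 and 122 CPM in frontal cortex Ctrl and at 0.984, 0.647, 0.759 and 0.578 CPM in cerebellum Ctrl, a log2 difference of −7.39 ± 0.064 (adjusted p = 1.53e-26, edgeR). Dlx6os1, the Evf2 RNA of the Dlx5 and Dlx6 locus of inhibitory neurons, had 22 ± 1 against 0.0484 ± 0.04 CPM (445-fold). 9130024F11Rik had 14.1 ± 1.2 against 0.0492 ± 0.023 CPM (286-fold). Miat, a nuclear RNA of neurons that binds splicing factors, had 23.1 ± 1.6 against 0.572 ± 0.22 CPM (40.9-fold). Pantr1 (55.8 against 8.77 CPM) and Chn1os1 (57.8 against 8.68 CPM) were 6.63-fold and 6.88-fold higher, with their partners Pou3f3 at 31.3 against 12.2 CPM and Chn1 at 1114 against 203 CPM. Dbpht2 (146 against 4.82 CPM), B230209E15Rik of the imprinted Prader-Willi region (50.9 against 2.2 CPM), Gm10419 (45.1 against 8.6 CPM) and a record with the symbol Lrrc7 and type lncRNA across Lrrc40 (54.5 against 1.18 CPM) completed the 10 with the smallest adjusted p. That record may share reads with the coding gene Lrrc7.

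**Figure D1:**
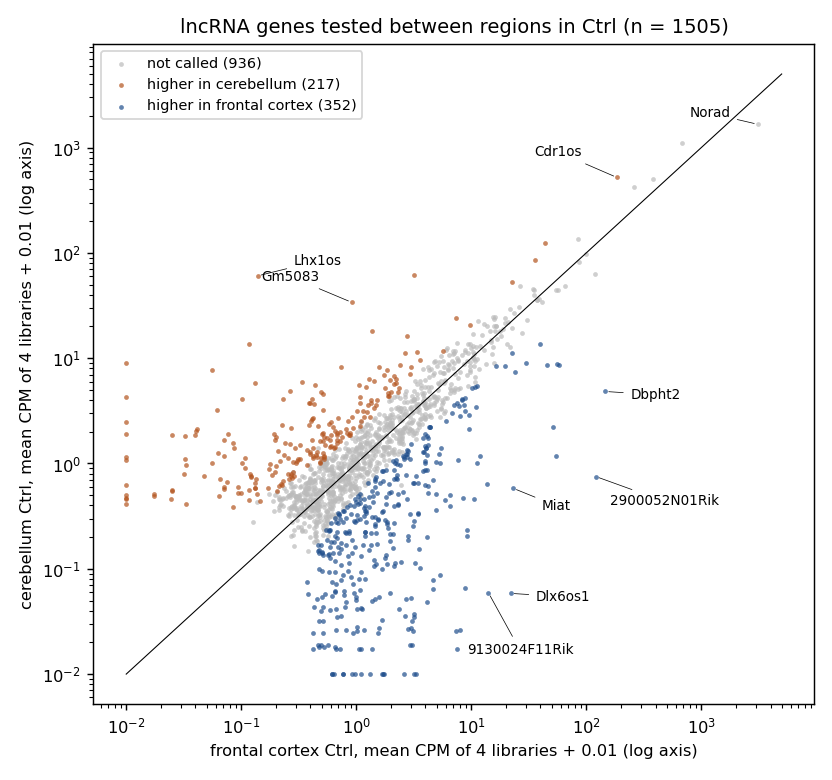
Mean CPM in frontal cortex Ctrl (x axis) against mean CPM in cerebellum Ctrl (y axis) for 1505 lncRNA genes, n = 4 libraries each, with 0.01 added and both axes on a log scale. Orange points are the 217 called higher in cerebellum, blue points the 352 called higher in frontal cortex, grey points were not called, and the line marks equal levels. Lhx1os (60.5 against 0.129 CPM) and Dlx6os1 (0.0484 against 22 CPM) sit far off the line, while Norad sits near it.

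Where an lncRNA gene crossed a protein-coding gene on the other strand, the pair often differed the same way. Of 192 tested coding partners of the opposite-strand lncRNA genes higher in frontal cortex, 86 (44.8%) were called higher there too and 10 lower, against 15.7% of all coding genes. For those higher in cerebellum, 44 of 123 partners (35.8%) were called the same way, against 8.51% of all coding genes. Nearest coding neighbours of intergenic lncRNA genes followed less, with 29 of 97 (29.9%) and 12 of 58 (20.7%), though the difference between the classes was not tested. Whether the counting used the strand of reads is not given in the sources used here, so reads of a pair whose exons overlap cannot be fully told apart.

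The second comparison asked how lncRNA genes changed in frontal cortex without Upf3b. Most calls were increases: of 1626 lncRNA genes tested, 183 were higher in Upf3b-KO (11.3%) and 46 lower (2.83%), where 9.16% and 1.06% of all genes tested were. The median log2 fold change over the tested lncRNA genes was 0.03, against 0.00 over all genes. Of the 183, 148 passed the filter on low counts only through Upf3b-KO and 35 passed it in both groups, so the former had to differ. Of the 46 decreases, 22 passed only through Ctrl. The called increases had a median fold change of 6.3, and 68 were over 8-fold, while the called decreases had a median of 2.71. Over protein-coding genes the medians were 5.85 and 2.35, with 501 of 1418 increases over 8-fold.

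Genes that carry RIKEN clone numbers of adult testis libraries made up much of the increase in frontal cortex. Of the 168 such lncRNA genes tested, 75 were higher in Upf3b-KO (44.6%) and 1 was lower, with a median log2 fold change of 0.96. Of the 75, 69 passed the filter on low counts only through Upf3b-KO and so had to differ, and 6 passed it in both groups. Without them 108 of 1458 were higher (7.41%) and 45 lower (3.09%). A clone number tells where a cDNA was first found, not where the gene is active. 1700008K24Rik (chr17:49419279-49420627, minus strand), one of the 75, stood at 0.751, 0.546, 0.493 and 0.652 CPM in Ctrl and at 4.08, 4.22, 4.09 and 4.01 CPM in Upf3b-KO, with no overlap (6.35-fold, adjusted p = 3.79e-11, edgeR). In cerebellum it stayed at or below 0.349 CPM in every library. Only 8 of the 75 were tested in cerebellum, where 14 of 89 such genes were higher (15.7%) and 7 lower (7.87%), near the 14% and 5.99% of all lncRNA genes tested in that tissue. Beside this, 12 of 14 male germ cell markers were higher in frontal cortex Upf3b-KO, their sum moving from 38.5 to 42.7 CPM in Ctrl to 235 to 243 CPM, and 7 of 8 motile cilia markers, from 21.5 to 23.3 to 64.1 to 69.7 CPM. In cerebellum the germ cell sum was 32.4 to 34.3 CPM in Ctrl and 27.9 to 28.9 CPM in Upf3b-KO, with Tex101 at 0 in Ctrl, although 7 of 11 tested markers were higher and 1 lower. What these markers contributed to the lncRNA counts was not tested.

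**Figure D2:**
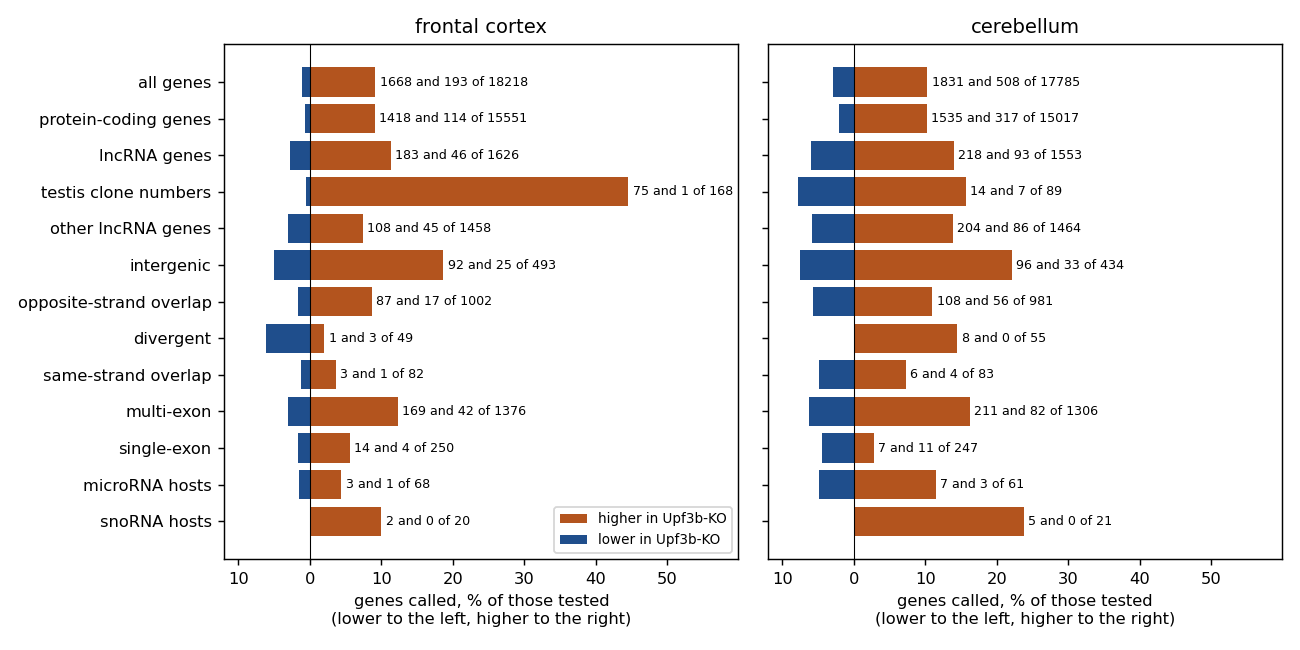
Share of tested genes called lower (bars to the left, blue) and higher (bars to the right, orange) in Upf3b-KO, in percent, in frontal cortex and cerebellum, for all genes and for classes of lncRNA genes, with the counts higher and lower of those tested beside each bar. Testis clone numbers stand out in frontal cortex with 75 higher of 168, against 14 of 89 in cerebellum.

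Among the named increases in frontal cortex, Ubb-ps stood at 15.3, 11.8, 14.3 and 17.4 CPM in Ctrl and at 95, 106, 102 and 96.7 CPM in Upf3b-KO. Every Upf3b-KO library lay above every Ctrl library, a log2 fold change of 2.69 ± 0.064 (adjusted p = 8.59e-19, edgeR). Pvt1, the lncRNA gene downstream of the growth regulator Myc (chr15:61888639-62249945, plus strand), stood at 8.53, 9.64, 8.29 and 8.91 CPM and at 28.2, 28.3, 27.8 and 27.5 CPM, again without overlap (3-fold, adjusted p = 2.28e-15). Myc, 26416 bases away, was at 4 CPM in both groups. Rmst, which binds Sox2 in neuronal differentiation and holds miR-135a and miR-1251 (chr10:91906899-92001132, minus strand), stood at 1.53, 1.45, 1.62 and 1.92 CPM in Ctrl and at 8.25, 9.22, 9.09 and 7.03 CPM in Upf3b-KO. It rose 4.87-fold (adjusted p = 3.09e-12). BC106175, an intergenic gene near Rhob, moved from 0.661 ± 0.26 to 8.53 ± 0.66 CPM (SD, n = 4 each, 12.2-fold), and Wbscr25, across the tight junction gene Cldn3, from 0.246 ± 0.1 to 4.02 ± 0.23 CPM (15.2-fold). Cldn3 moved from 0.277 to 0.813 CPM and was called higher as well (adjusted p = 0.00261). Gm21984, across Asphd1, rose from 3.24 ± 0.22 to 11.9 ± 0.39 CPM and 5430416N02Rik, near Sec31a, from 4.38 ± 0.57 to 13.3 ± 0.73 CPM, while the log2 fold changes of Asphd1 and Sec31a were 0.00 and −0.06 and not called. A730060N03Rik, across Cacng2, which encodes an auxiliary subunit of AMPA receptors, rose from 2.38 ± 0.18 to 7.74 ± 0.23 CPM with Cacng2 at 55.6 and 56.9 CPM. Gm36684 rose from 0.0832 ± 0.14 to 4.97 ± 0.56 CPM (54.6-fold).

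The decreases in frontal cortex included genes that nearly vanished. Gm17167 (chr4:42206998-42235313, plus strand) stood at 17.9, 18.6, 18.9 and 16.1 CPM in Ctrl and at 0.983, 0.241, 0.337 and 0.368 CPM in Upf3b-KO (38.4-fold lower, adjusted p = 9.87e-16, edgeR). Gm27177 (chr14:69819613-69920735, minus strand), across Entpd4b, stood at 7.89, 11.6, 8.92 and 9.18 CPM and at 0.381, 0.131, 0.0666 and 0.441 CPM (37.6-fold lower). In both, Ctrl and Upf3b-KO libraries were separated by a wide gap. 2610035D17Rik, an intergenic gene 41736 bases from the zinc transporter gene Slc39a11 (chr11:112934701-113092731, minus strand), stood at 18.4, 18.5, 19.1 and 19.3 CPM in Ctrl and at 8.9, 7.97, 9 and 9.47 CPM in Upf3b-KO (log2 fold change −1.17 ± 0.069, adjusted p = 4.37e-12). Gm11681, 4875 bases from Sox9, a transcription factor of glia, fell from 4.61 ± 0.73 to 1.3 ± 0.24 CPM, while Sox9 stood at 88.4 and 93.8 CPM. A830019P07Rik, near the serotonin receptor gene Htr7, fell from 3 ± 0.25 to 0.442 ± 0.23 CPM (7.1-fold), with Htr7 at 17.8 and 11.2 CPM. 2210406O10Rik, Gm49708, Gm47033 and Gm34466 fell 2.61-fold to 3.82-fold, and Gm42047 fell from 1.04 ± 0.42 to 0.0274 ± 0.036 CPM. In cerebellum Gm34466 was at 0 in every library, and in Ctrl it was at least 72.9-fold higher in frontal cortex than 3 counts over the 4 cerebellum libraries. Beside these decreases the astrocyte marker sum was 2837 to 2875 CPM in Ctrl and 2256 to 2283 CPM in Upf3b-KO (0 of 5 called). The cortical excitatory neuron sum was 1593 to 1657 against 1493 to 1505 CPM (1 of 7 called lower). The oligodendrocyte sum was higher, 7556 to 7641 against 10222 to 10296 CPM (0 of 6 called). The part of these markers was not tested.

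The third comparison asked the same of cerebellum, where more lncRNA genes were called. Of 1553 tested, 218 were higher in Upf3b-KO (14%) and 93 lower (5.99%), against 10.3% and 2.86% of all genes tested. With the shallow Upf3b-KO library 1 included, 138 were higher and 90 lower of 1333 tested. The median log2 fold change over the lncRNA genes was 0.02. Of the 218, 125 passed the filter only through Upf3b-KO, 93 passed it in both groups, and 10 were at 0 in every Ctrl library. Of the 93 decreases, 35 passed only through Ctrl. The called increases had a median fold change of 4.31, with 69 over 8-fold, and the decreases one of 2.65. Over protein-coding genes the medians were 4 and 2.34, with 429 of 1535 increases over 8-fold.

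2900052N01Rik, far higher in frontal cortex than in cerebellum in Ctrl, was among the named increases in cerebellum. It stood at 0.984, 0.647, 0.759 and 0.578 CPM in Ctrl and at 14.9, 17.1 and 16.7 CPM in Upf3b-KO, a 20.9-fold rise (adjusted p = 1.81e-15, edgeR) to a level still well below that of frontal cortex. Rmst stood at 1.59, 0.802, 1.32 and 1.05 CPM and at 20.1, 18 and 18 CPM (15.1-fold, adjusted p = 1.6e-14). Pvt1 stood at 3.56, 2.44, 3.04 and 3.4 CPM and at 21, 22.9 and 19.5 CPM (6.57-fold), and Ubb-ps at 15.5, 11.6, 18.1 and 14.1 CPM and at 108, 109 and 104 CPM (7.01-fold). In none of these genes did the groups overlap. C130021I20Rik, which shares its start region with Lmx1b as shown above, stood at 0.174, 0.265, 0.132 and 0.289 CPM in Ctrl and at 5.03, 5.59 and 5.41 CPM in Upf3b-KO (23.8-fold). Lmx1b, a homeobox gene of midbrain and hindbrain neurons, moved with it from 0.115 to 1.5 CPM (log2 fold change 3.58, adjusted p = 1.2e-06), while in frontal cortex the lncRNA stayed at 0.211 and 0.0536 CPM. 2410018L13Rik rose from 0.027 ± 0.037 to 6.12 ± 0.37 CPM (SD, n = 4 and 3), and Gm26673, across the potassium channel gene Kcna6, from 0.601 ± 0.11 to 9.48 ± 0.64 CPM with Kcna6 at 160 and 175 CPM. Sox2ot, which spans the stem cell factor gene Sox2, rose from 17.3 ± 0.73 to 43.9 ± 1.3 CPM, whereas Sox2 stood at 27.4 and 31 CPM. Gm6145, the host of miR-6390, rose from 22.9 ± 0.82 to 51.4 ± 1.6 CPM. Beside these increases stood the higher sums of choroid plexus and oligodendrocyte markers given above. The sum of 8 motile cilia markers was also higher, 26.5 to 29.1 CPM in Ctrl against 39.9 to 41.7 CPM (5 of 8 called higher), and that of 4 red cell markers was 1239 to 1304 against 2367 to 2414 CPM. All 4 lay between 0.76 and 0.95 in log2 fold change, so 0 of 4 were called by edgeR or DESeq2, while 4 of 4 had an unadjusted p under 0.05 in edgeR. The striatal sum was 369 to 380 against 336 to 346 CPM, although 3 of 8 of its markers were called higher.

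The named decreases in cerebellum were partly those of frontal cortex and partly lncRNAs that were higher in cerebellum than in frontal cortex in Ctrl. Gm17167 stood at 17.9, 18.6, 18.5 and 18.1 CPM in Ctrl and at 0.152, 0.484 and 0.157 CPM in Upf3b-KO (70.4-fold lower), Gm27177 fell from 11.1 ± 0.89 to 0.357 ± 0.38 CPM, and 2610035D17Rik from 19 ± 2.2 to 8.83 ± 1.2 CPM. Gm5083, 36-fold higher in cerebellum than frontal cortex in Ctrl, stood at 34.1, 33.6, 33.5 and 34.4 CPM and at 7.75, 7.26 and 8.02 CPM, with no overlap (4.57-fold lower, adjusted p = 1.55e-16, edgeR). Gm13944 fell from 9 ± 0.71 to 2.12 ± 0.11 CPM, Gm14033 from 13.5 ± 0.9 to 5.36 ± 0.45 CPM and 9330118I20Rik from 18.2 ± 1.3 to 8.71 ± 0.037 CPM. Gm5089 fell 2.46-fold, Gm64463 2.35-fold and Ino80dos, across a chromatin remodeler gene, 2.65-fold. Beside these decreases stood the lower sums of Purkinje and granule cell markers. The sum of 5 astrocyte markers was also lower, 4169 to 4222 against 2732 to 2753 CPM (1 of 5 called lower), as was that of 7 cortical excitatory neuron markers, 560 to 583 against 351 to 360 CPM (1 of 5 tested called lower, Fezf2 at 0 in Upf3b-KO). The part of these markers was not tested.

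In cerebellum the coding partners of the opposite-strand increases often rose as well: 36 of 101 tested (35.6%), against 10.2% of all coding genes, were called higher and 1 lower. In frontal cortex it was 10 of 83 (12%) against 9.12%. The limit given above holds here too: reads of a pair whose exons overlap cannot be fully told apart. For the intergenic increases the nearest coding gene was called higher in 13 of 77 cases (16.9%) in cerebellum and 12 of 74 (16.2%) in frontal cortex. By position, 92 of 493 intergenic lncRNA genes were higher in frontal cortex (18.7%) and 96 of 434 in cerebellum (22.1%), where 9.16% and 10.3% of all genes and 11.3% and 14% of all lncRNA genes were. Of those that crossed a coding gene on the other strand, 87 of 1002 (8.68%) and 108 of 981 (11%) were higher, close to the shares over all genes. Of the genes with a start within 1000 bases of an opposite coding start, 1 of 49 was higher (2.04%) and 3 lower (6.12%) in frontal cortex, and 8 of 55 were higher in cerebellum (14.5%), near the share over all lncRNA genes. In cerebellum 7 of 247 single-exon genes were higher (2.83%) and 11 lower (4.45%), against 211 (16.2%) and 82 (6.28%) of 1306 multi-exon genes. In frontal cortex 14 of 250 (5.6%) and 169 of 1376 (12.3%) were higher.

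The responses of both tissues were set side by side over the 1240 lncRNA genes tested in both. The comparisons share no library, but by the study's account both tissues came from the same mice. Of 57 higher in frontal cortex and 183 higher in cerebellum, 39 were higher in both, which is 68.4% of the former and 21.3% of the latter. Over all genes tested in both tissues these shares were 57.4% and 31.6%. Of 29 and 57 lower, 9 were lower in both (31% and 15.8%), against 40.4% and 15.9% over all genes. The 39 were led by Ubb-ps, Pvt1, Rmst, Gm21984, Gm49980 and A930005H10Rik, with cerebellum Upf3b-KO levels from 17.1 to 107 CPM. A930005H10Rik, across the diphthamide synthesis gene Dph5, rose 2.08-fold and 2.59-fold, and Gm49980, 605 bases from Pik3c3, 2.85-fold and 3.98-fold. The 9 were Gm17167, Gm27177, 2610035D17Rik, Gm5083, A830019P07Rik, Gm42047, A930006K02Rik, B130034C11Rik and Gm19531. Most of the frontal cortex increases, 126 of 183, were too low in cerebellum to be tested there.

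Gm16201 and Gm5784 were called in opposite directions. Gm16201 stood at 0.521, 0.455, 0.334 and 0.398 CPM in frontal cortex Ctrl and at 1.83, 1.03, 1.83 and 1.33 CPM in Upf3b-KO. In cerebellum it stood at 5.86, 5.51, 5.74 and 5.12 CPM and at 2.09, 3 and 2.42 CPM. The gene thus rose 3.28-fold where it was low and fell 2.29-fold where it was high. Gm5784 fell from 2.53 ± 0.41 to 1.14 ± 0.31 CPM in frontal cortex and rose from 0.531 ± 0.22 to 2.38 ± 0.35 CPM in cerebellum.

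**Figure D3:**
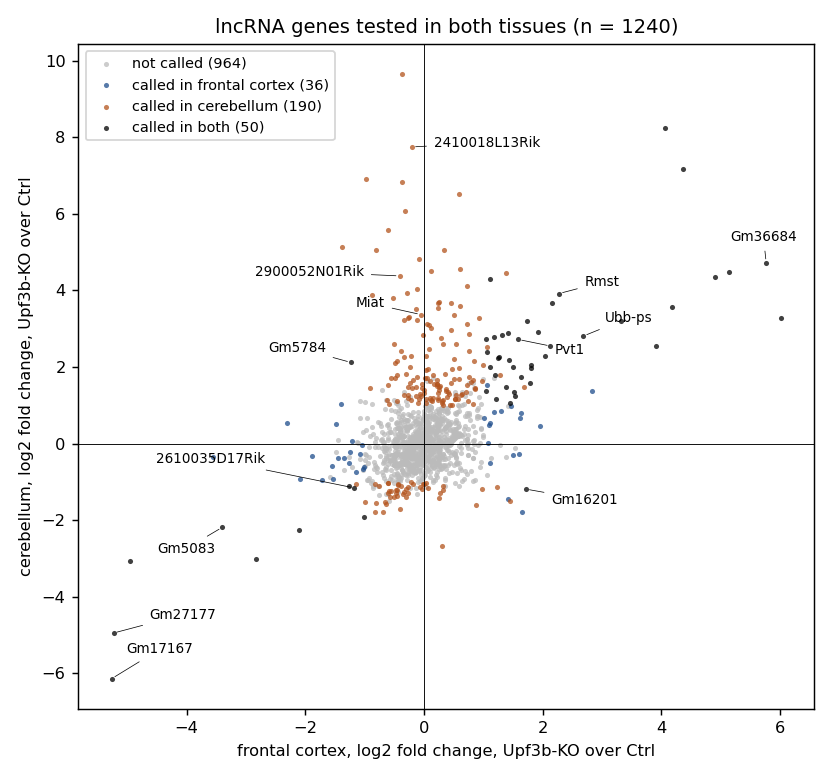
Log2 fold change, Upf3b-KO over Ctrl, in frontal cortex (x axis) and cerebellum (y axis) for 1240 lncRNA genes tested in both tissues. Black points were called in both (50), blue in frontal cortex only (36), orange in cerebellum only (190) and grey in neither (964). Gm17167 and Gm27177 lie at the lower left, Gm36684 at the upper right, and 2410018L13Rik, 2900052N01Rik and Miat high up near the middle of the x axis.

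The difference between the tissues was tested directly as the region by genotype interaction. Of 2138 lncRNA genes tested, 162 had a more positive response in cerebellum (7.58%) and 47 a more negative one (2.2%), against 6.36% and 3.04% of all genes tested. Miat stood at 0.81, 0.647, 0.297 and 0.533 CPM in cerebellum Ctrl and at 5.96, 6.27 and 6.52 CPM in Upf3b-KO, but at 23.1 ± 1.6 and 23.5 ± 1.8 CPM in frontal cortex (SD, n = 4 each). Its interaction value was 3.41 ± 0.18 on the log2 scale (adjusted p = 2.02e-14, edgeR). 2410018L13Rik had the largest value of those named (7.94 ± 0.46), followed by C130021I20Rik (6.50 ± 0.62), 2900052N01Rik (4.78 ± 0.1) and Gm26673 (4.22 ± 0.22), and B230209E15Rik had 2.60 ± 0.11. Pvt1 and Rmst, called higher in both tissues, also rose more in cerebellum, by 1.12 ± 0.12 and 1.62 ± 0.22. On the negative side, Dleu2, the host of miR-15a and miR-16, stood at 7.23, 8.03, 6.41 and 5.88 CPM in frontal cortex Ctrl and at 10.3, 9.83, 9.59 and 11.4 CPM in Upf3b-KO. In cerebellum it stood at 12.3, 13, 10.9 and 10.6 CPM and at 7.87, 8.63 and 8.03 CPM. Neither change passed 2-fold, and the interaction was −1.08 ± 0.14 (adjusted p = 6.23e-07). D430036J16Rik, across the serotonin receptor gene Htr1b, had −1.69 ± 0.22, and Htr1b itself was 37.1 and 19.8 CPM in cerebellum Ctrl and Upf3b-KO. 1700048O20Rik had −1.09 ± 0.14, and Gm5089 −1.04 ± 0.13, which fell short of 2-fold (−0.95 to −0.99) without cerebellum Ctrl library 2, cerebellum Upf3b-KO library 2 or 3, or frontal cortex Ctrl library 2.

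**Figure D4:**
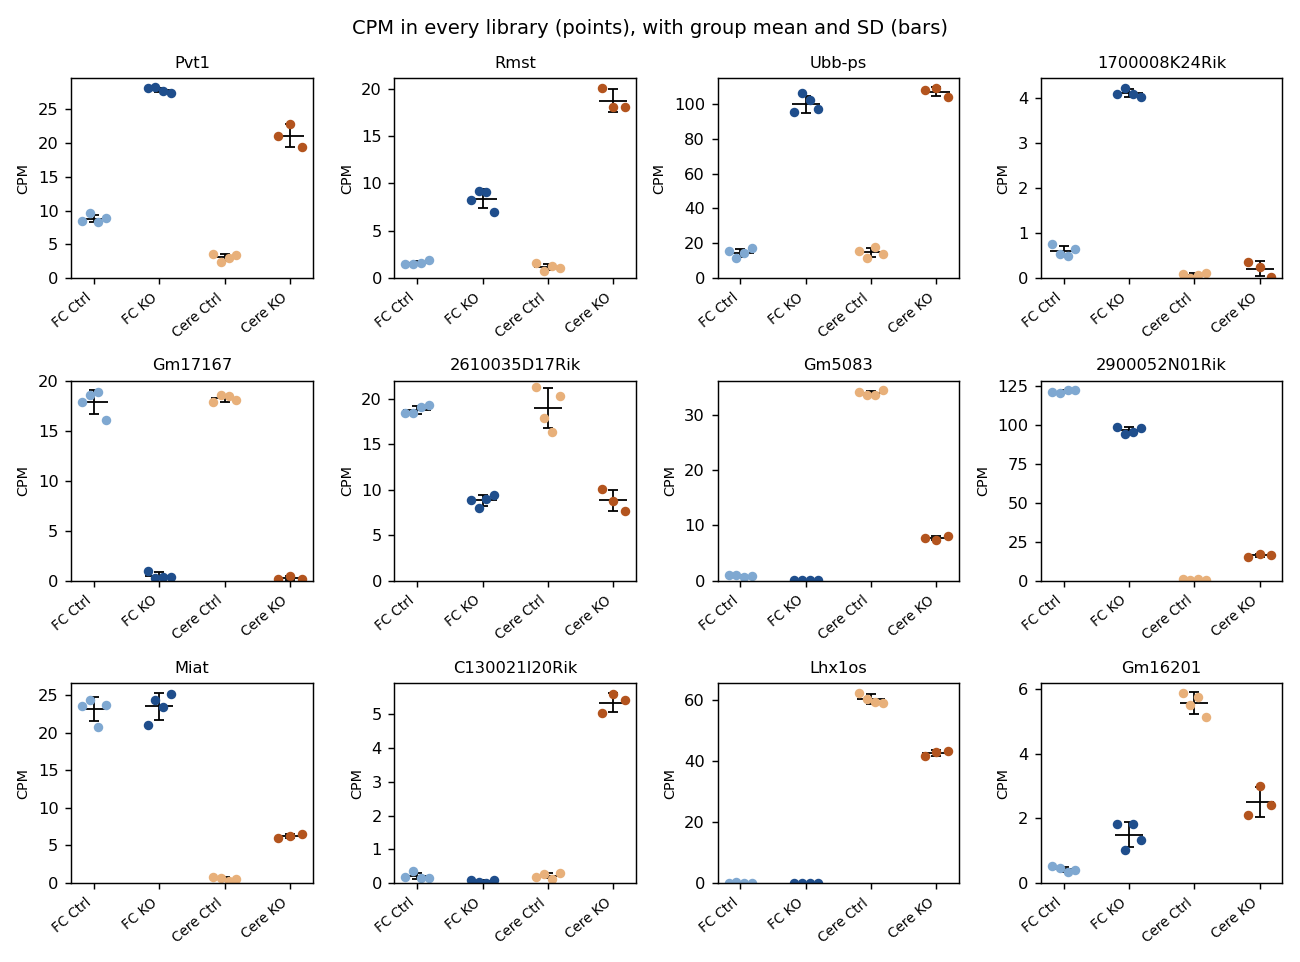
CPM of 12 lncRNA genes in every library (points) of frontal cortex (FC, blue) and cerebellum (Cere, orange), Ctrl (light) and Upf3b-KO (KO, dark), with group mean and SD as bars and each axis starting at 0, n = 4 except 3 for cerebellum Upf3b-KO. Pvt1, Rmst and Ubb-ps are higher in Upf3b-KO in both tissues, Gm17167 and 2610035D17Rik lower in both, and 2900052N01Rik, Miat and C130021I20Rik higher in cerebellum Upf3b-KO.

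The contrast between regions was also taken in the Upf3b-KO libraries, none of which entered the Ctrl contrast. There 196 of 1879 lncRNA genes were higher in cerebellum (10.4%) and 443 higher in frontal cortex (23.6%), against 6.92% and 15.7% of all genes tested. Of the 196, 113 passed the filter on low counts only through cerebellum, and of the 443, 326 only through frontal cortex, so these had to differ. Testis clone numbers made up 120 of the 443 (120 of 196 such genes tested, 61.2%), and 105 of these 120 passed only through frontal cortex. Without testis clone numbers 323 of 1683 lncRNA genes were higher in frontal cortex (19.2%). In Ctrl 19 of the 352 carried testis clone numbers. Over the 1415 tested in both contrasts, 109 of the 189 higher in cerebellum in Ctrl (57.7%) were called so in Upf3b-KO, and 203 of the 339 higher in frontal cortex (59.9%). These shares were near those over all genes, 53.6% and 62%. Of the 339, 6 became higher in cerebellum (1.77%, against 1.81% over all genes): 2410018L13Rik, Gm26673, Gm5784, Gm17382, Gm13589 and Gm26592, named as a complete set after their values were seen.

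Values of the region-specific lncRNAs in Upf3b-KO cerebellum can be set beside their Ctrl levels, with the limit that both contrasts use the same cerebellum Ctrl libraries. Of the 10 named frontal cortex lncRNAs, Dbpht2 moved from 4.82 to 10.9 CPM in cerebellum, B230209E15Rik from 2.2 to 11 CPM, Gm10419 from 8.6 to 19.1 CPM and the Lrrc7 record from 1.18 to 2.9 CPM, and all 4 were called higher, as were 2900052N01Rik and Miat. Dlx6os1 stayed at 0.0484 and 0 CPM, 9130024F11Rik at 0.0492 and 0.0211 CPM, and Chn1os1 at 8.68 and 6.71 CPM. Pantr1 stood at 8.77 and 12.3 CPM, a 1.36-fold change that was not called. Of the cerebellar lncRNAs, Lhx1os stood at 62.5, 60.6, 59.5 and 59.2 CPM in Ctrl and at 41.6, 43.1 and 43.4 CPM in Upf3b-KO (log2 fold change −0.55 ± 0.036), and Gm19872 at 61.1 and 31.9 CPM (−0.99 ± 0.042), both short of the 2-fold limit. Cdr1os went from 520 ± 8.3 to 368 ± 9.2 CPM, and in frontal cortex from 185 ± 3.5 to 235 ± 8.8 CPM.

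Lists of lncRNAs by known role are small, and their counts stand beside 9.16% of all genes higher and 1.06% lower in frontal cortex, and 10.3% and 2.86% in cerebellum. Among nuclear retained RNAs, 1 of 6 tested was higher in frontal cortex (Rmst) and 2 of 6 in cerebellum (Rmst and Miat). Neat1, the scaffold of paraspeckles, stood at 37.2, 34.6, 39 and 37.6 CPM in frontal cortex Ctrl and at 64.4, 64.1, 64 and 64.8 CPM in Upf3b-KO. In cerebellum it stood at 37.4, 36.4, 32.7 and 36.9 CPM and at 68.3, 63.8 and 63.4 CPM. The groups did not overlap in either tissue, and with log2 fold changes of 0.72 ± 0.036 and 0.81 ± 0.045 it missed only the fold limit. Malat1, its neighbour on chromosome 19, stood at 384 and 364 CPM in frontal cortex and at 505 and 310 CPM in cerebellum (−0.75 ± 0.018), Kcnq1ot1 at 14.6 and 11.3 and at 18.2 and 12.9 CPM, and Firre at 16.2 and 15 and at 24.6 and 20 CPM.

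In the neuronal and developmental list, 3 of 18 tested were higher in frontal cortex, and in cerebellum 6 of 16 were higher (37.5%) and 1 lower. Six3os1, beside the forebrain homeobox gene Six3, moved from 0.119 to 1.81 CPM in frontal cortex and was listed at 0 to 0.0698 CPM in cerebellum, and Hoxd3os1 moved from 0.0372 to 1.21 CPM in frontal cortex. In cerebellum the increases were Rmst, Miat, Sox2ot, Crnde (1.96 to 4.74 CPM) and RNAs of the Hox clusters, the homeobox genes of hindbrain and spinal cord: Hotairm1 moved from 0.101 ± 0.075 to 2.06 ± 0.29 CPM and Hoxb3os from 0.0217 ± 0.043 to 4.66 ± 1.6 CPM (SD, n = 4 and 3). Six3os1 and Hoxd3os1 in frontal cortex passed the filter on low counts only through Upf3b-KO. The same holds for Hotairm1 and Hoxb3os in cerebellum, so these increases had to differ. Hottip and Hotair were at 0 in all 15 libraries. Pax6os1 fell from 1.91 to 0.597 CPM. Emx2os, beside the cortical homeobox gene Emx2, stood at 7.56 and 10 CPM in frontal cortex and did not exceed 0.0294 CPM in any cerebellar library.

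All 8 tested hosts of the microRNA list changed less than 2-fold in both tissues. Mir124a-1hg stood at 24 and 12.9 CPM in cerebellum (−0.94 ± 0.06), Mir9-3hg at 44.4 and 27.7 CPM (−0.73 ± 0.044), Mir100hg at 14.1 and 24.3 CPM (0.74 ± 0.072) and Mir22hg at 13.7 and 20.6 CPM (0.54 ± 0.07), all with an adjusted p under 0.01 in edgeR but less than 2-fold. By annotation, 7 of 61 microRNA hosts were higher (11.5%) and 3 lower in cerebellum, close to the 10.3% and 2.86% of all genes, and 3 of 68 were higher (4.41%) and 1 lower in frontal cortex, against 9.16% and 1.06%. Of small nucleolar RNA hosts outside the excluded Gas5 and Snhg genes, 5 of 21 were higher in cerebellum (23.8%) and 2 of 20 in frontal cortex (10%). Zfas1, the host of Snord12, stood at 8.98, 7.67, 7.97 and 8.72 CPM in frontal cortex Ctrl and at 17.8, 16.7, 16.9 and 17.7 CPM in Upf3b-KO (log2 fold change 0.98 ± 0.073, just under the limit). In cerebellum it stood at 4.34, 4.38, 3.96 and 3.8 CPM and at 14.2, 12.9 and 12.8 CPM (1.63 ± 0.098, called), so that no Upf3b-KO library overlapped Ctrl in either tissue. Dancr, another host, stood at 1.36 and 1.87 CPM and at 1.62 and 1.71 CPM, with ranges that overlapped in both tissues.

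Of the imprinted list, B230209E15Rik was the only call in 6 tested in cerebellum, while the 4 tested in frontal cortex changed less than 2-fold. Peg13 stood at 262 and 278 CPM in frontal cortex and at 418 and 396 CPM in cerebellum. Airn, the antisense RNA of the Igf2r locus, was at 0.399 CPM in frontal cortex Ctrl and 4.11 CPM in cerebellum Ctrl. On the X inactivation list, Xist and Tsix did not exceed 0.145 CPM in any library, and Jpx and Ftx, at 5.49 to 12 CPM in the 4 groups, were not called. Of the stress and growth list, Pvt1 alone was called, in both tissues, of 7 tested in each. Norad stood at 3098 ± 13 and 3069 ± 28 CPM in frontal cortex and at 1664 ± 7.9 and 1994 ± 9.7 CPM in cerebellum. Of 39 lncRNA genes tested on the X chromosome, where Upf3b lies, 4 were higher (10.3%) and 1 lower in frontal cortex, and of 40 in cerebellum also 4 (10%) and 1, near the shares over all genes of 9.16% and 10.3% higher.

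Several of the strongest changes lie in genes with a near copy elsewhere, where the division of reads is uncertain. Of 78 named lncRNA genes, 12 had a stretch of at least 95% identity over at least 50% of their main transcript in another gene, and 66 had none. Ubb moved opposite to Ubb-ps, in frontal cortex from 2325 to 1146 CPM and in cerebellum from 2440 to 1194 CPM (log2 fold changes −1.10 and −1.08). Gm36684 aligned to Sod2, the mitochondrial superoxide dismutase gene, over its whole length at 98.5% identity, while Sod2 stood at 264 and 251 CPM and at 307 and 305 CPM. Gm17081, a pseudogene that shares 99.2% identity with a stretch of Gm17167, fell with it from 3.68 to 0.0535 CPM and from 3.05 to 0.0129 CPM. Entpd4, a nucleotidase gene with 99.9% identity to a stretch of Gm27177, went from 91.7 to 56.9 CPM and from 96.9 to 69.4 CPM, and Tmem181a, the counterpart of Gm64463, from 56.4 to 53 CPM and from 80.9 to 59.5 CPM. Pvt1, Rmst, Miat, 2610035D17Rik, Gm5083 and 2900052N01Rik had no such copy.

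**Figure D5:**
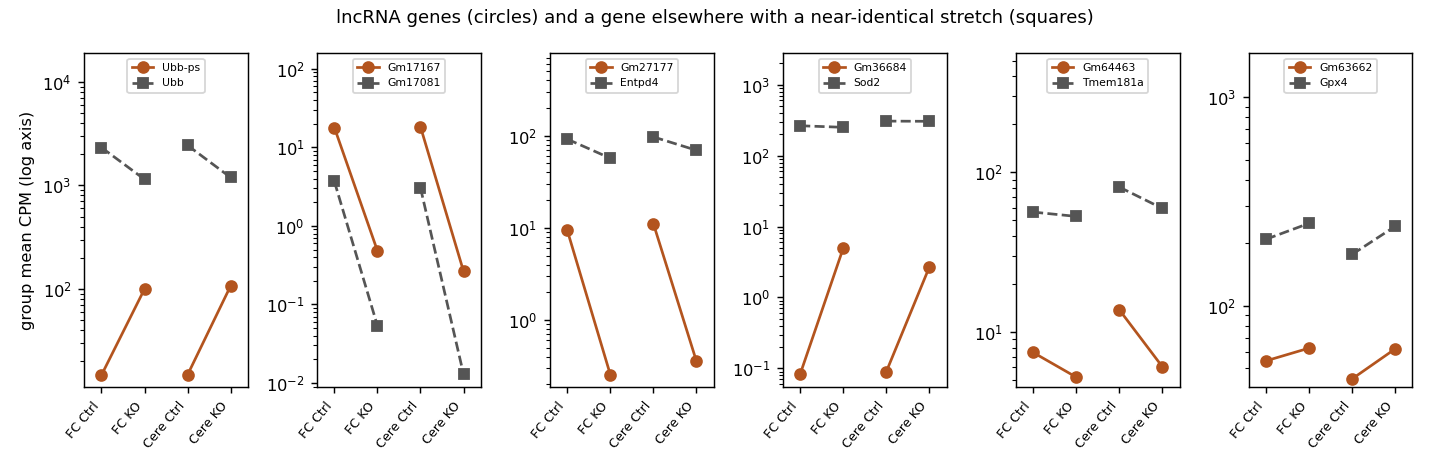
Group mean CPM (log axis) of 6 lncRNA genes (circles) and of a gene elsewhere with a near-identical stretch (squares), in frontal cortex (FC) and cerebellum (Cere), Ctrl and Upf3b-KO (KO), n = 4 except 3 for cerebellum Upf3b-KO, with no error bars. Ubb-ps rises while Ubb falls from 2325 to 1146 CPM in frontal cortex, Gm17167 and Gm17081 fall together, and Sod2 stays near 264 and 251 CPM while Gm36684 rises.

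Features that the choice of genes did not use were described for the called genes. In genes whose main transcript is multi-exon, the end of the longest open reading frame of at least 50 codons was set against the last exon junction. An end more than 50 bases before that junction is a layout known to attract NMD in coding transcripts. It was found in 39 of 166 such increases in frontal cortex (23.5%) and in 49 of 206 in cerebellum (23.8%). Among the decreases it was 8 of 39 in frontal cortex (20.5%) and 10 of 76 in cerebellum (13.2%). Over the tested lncRNA genes with a multi-exon main transcript the shares were 19.5% in frontal cortex and 17.5% in cerebellum. Whether these frames are translated was not measured. Increases in frontal cortex came from shorter main transcripts, with a median of 1252 bases against 1788 bases for all tested there, while in cerebellum the medians were 1780 and 1809 bases. In the 300 bases around the annotated start (250 before, 50 after, both strands), the GC box GGGCGG was found in 31.1% of the lncRNA genes tested in frontal cortex and 19.3% of all genes. It was found in 12 of the 75 testis clone numbers called higher there (16%), in 16.7% of all testis clone numbers and in 20 of the other 108 increases there (18.5%). Of the 218 increases in cerebellum 39 had it (17.9%), against 32.3% of those tested in that tissue. The cAMP response element TGACGTCA was found in none of these 75 and in 6 of the other 108 increases (5.56%), against 1.17% of the lncRNA genes tested there and 1.09% of all genes. In the cerebellar increases it was 3 of 218 (1.38%), against 0.966% of those tested. These are matches of letters only. The TATA box TATAAA was found in 7 of the 75 (9.33%), in 10.9% of the lncRNA genes tested in frontal cortex and in 17.6% of all genes. It was found in 16 of the other 108 increases there (14.8%), and in 33 of the 218 increases in cerebellum (15.1%), against 9.98% of those tested there.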

How the data were processed

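Bulk RNA of frontal cortex and cerebellum of Upf3b-KO and Ctrl mice was depleted of ribosomal RNA, made into SMART-Seq v4 PLUS libraries and sequenced as read pairs. The authors deposited expected counts per transcript, which RSEM estimates from STAR 2.5.2b alignments (GRCm39, per the labels). Strand use in counting is not given in the sources used here. Expected counts were rounded after summing per gene, with gene types from GENCODE vM39. Of 142435 transcripts, 141102 matched that annotation and 1333 did not. All columns were mapped to a sample. Groups came from the labels. Cerebellum Upf3b-KO library 1 was left out for low depth (64981 counts, the others 27660078 to 35238677), and 3 counts equal 0.0851 to 0.108 CPM in the others, a floor that covers counting error only.

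Each comparison was fitted over all genes with edgeR 4.0.16 (quasi-likelihood test, TMM scaling, R 4.3.3) after a filter at a minimum count of 10, with Benjamini-Hochberg adjustment. Genes were called at an adjusted p under 0.01 and over 2-fold, the thresholds of the study. The script was tested on simulated data. Alternatives were DESeq2 1.42.0, other scaling, other filters and thresholds, a replicate block, leaving out each library and including the shallow one. Copies were searched with BLAST+ 2.17.0.

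Named genes were, for each direction, the 10 calls lowest in adjusted p, with libraries that did not overlap (Upf3b-KO contrasts) and a mean of at least 1 CPM, 8 of those called alike in both tissues (lowest in adjusted p) and those called oppositely, 5 of each sign in the interaction, the 10 with the highest TPM in each Ctrl group, and up to 4 of each list by CPM. Other members of the lists and complete sets of 9 or fewer were also named. The members and lists were chosen with earlier results of these data known. Genes that overlap others, or have copies, are uncertain.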

Additional observations from a re-analysis of the deposited data

Results flagged for a closer look

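Single libraries stood apart from the other libraries of their group in 20 of 231 groups of 4 tested by Dixon's criterion, which chance meets in about 1 of 20 groups. In frontal cortex Ctrl these were Gm21984 in library 3 (3.57 CPM, others 3.1 to 3.16), Gm36684 in library 2 (0.292, others 0 to 0.0412), C130021I20Rik in library 2 (0.364, others 0.145 to 0.18), B230209E15Rik in library 2 (49.1, others 51.3 to 51.6), 1700048O20Rik in library 1 (5.31, others 5.9 to 5.93) and Kcnq1ot1 in library 1 (15.6, others 14.1 to 14.3). Tsix had 0.0307 CPM in library 3 and Xist 0.031 CPM in library 4, with the others at 0.

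In frontal cortex Upf3b-KO they were Gm17167 in library 1 (0.983 CPM, others 0.241 to 0.368), 9130024F11Rik in library 1 (16.6, others 15.2 to 15.4), Gm70834 in library 2 (46.7, others 38.5 to 39.6), Gm49708 in library 3 (2.34, others 1.26 to 1.42), Gm49980 in library 3 (11, others 8.38 to 8.69), Ino80dos in library 4 (2.08, others 3.3 to 3.31) and Xist in library 2 (0.0702, others 0). In cerebellum Ctrl they were 9330118I20Rik (16.2 CPM, others 18.8 to 18.9) and the Lrrc7 record (1.14, others 1.19 to 1.2) in library 1, Xist in library 2 (0.141, others 0), and Gm49708 (0.75, others 0.422 to 0.434) and Epb41l4aos (0.181, others 0.693 to 0.723) in library 4.

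The response to Upf3b loss differed between the tissues, by the interaction term on the log2 scale (edgeR), in 21 named genes. It was more positive in cerebellum in 15 of them, 2410018L13Rik (7.94), C130021I20Rik (6.50), 2900052N01Rik (4.78), Gm26673 (4.22), Miat (3.41), Gm5784 (3.34), B230209E15Rik (2.60), Gm47033 (2.42), Gm49708 (1.99), Rmst (1.62), Gm11681 (1.56), Dbpht2 (1.32), the Lrrc7 record (1.29), Gm5083 (1.20) and Pvt1 (1.12). It was more negative in 6, Gm16201 (−2.92), Gm15577 (−2.41), D430036J16Rik (−1.69), 1700048O20Rik (−1.09), Dleu2 (−1.08) and Gm5089 (−1.04). The calls of Gm5083, Gm5089 and Gm15577 were lost when single libraries were left out, with values of 0.90 to 1.25, −0.95 to −0.99 and −1.90.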

How the results depend on the processing

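The numbers of called lncRNA genes (229 in frontal cortex, 311 in cerebellum, 569 between regions in Ctrl, 639 between regions in Upf3b-KO and 209 in the interaction) depended most on the filter and the thresholds. In that order a minimum count of 50 gave 54, 133, 249, 221 and 120, an adjusted p under 0.05 without a fold limit gave 522, 649, 922, 1012 and 485, and genes that share no exon with another gene gave 99, 105, 168, 227 and 65. Without the fold limit the split was more even, with 336 higher and 186 lower in frontal cortex (183 and 46 with it) and 354 and 295 in cerebellum (218 and 93). With no filter on low counts there were 475 in frontal cortex and 892 between regions in Ctrl. Leaving out 1 library gave 218 to 277, 279 to 293, 576 to 592, 554 to 635 and 185 to 203. DESeq2 gave 238, 310, 563, 653 and 254. With the shallow library, 228 were called in cerebellum (138 higher and 90 lower, against 218 and 93 without it), 509 between regions in Upf3b-KO and 209 in the interaction. With the replicate block the numbers were 222, 266, 550, 557 and 179. Deviations of same-numbered libraries had correlations of −0.040 to 0.041 in frontal cortex, against −0.058 to 0.046 for other numbers. In cerebellum they were 0.086 to 0.106 against −0.144 to 0.076, and every library with a same-numbered partner correlated best with it, a hint from the data and not from the design. Across tissues same-numbered libraries had −0.142 to 0.111 in Ctrl, against −0.134 to 0.116 for other numbers, and −0.029 to 0.032 in Upf3b-KO, against −0.072 to 0.070. The numbers were not taken as pairs, since not every correlation was over 0.1. Of the named results under the alternatives, 1302 kept their direction and their side of the threshold, and 19 lost the call, all for the interaction. Gm5083 lost it with DESeq2 (1.25), with the replicate block (1.20) and without any 1 library (0.90 to 1.25) except frontal cortex Ctrl library 3, frontal cortex Upf3b-KO library 4 and cerebellum Upf3b-KO library 3. Gm5089 lost it without cerebellum Ctrl library 2, cerebellum Upf3b-KO library 2 or 3, or frontal cortex Ctrl library 2 (−0.95 to −0.99), and Gm15577 without frontal cortex Upf3b-KO library 3 (−1.90). Depth limits what can be said of lncRNA genes with few counts, most of which were not tested.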
